A study of Homo sapiens with 2 samples.

Results

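The miR-34 family and the miR-192, miR-194 and miR-215 group are microRNAs with established roles in restraining cell growth. They were followed by name in small RNA libraries of MDA-MB-231, an established human breast cancer cell line of triple-negative origin. The set comprised 9 of the 2656 mature microRNAs in the deposited count table: both arms of miR-34a, miR-34b and miR-34c (6 microRNAs) and hsa-miR-192-5p, hsa-miR-194-5p and hsa-miR-215-5p (3 microRNAs). The cells had been transduced with an shRNA directed at ELOVL5, an elongase of polyunsaturated fatty acids (shELOVL5), or with the control shRNA shLuc. There was 1 library per condition, so each difference below compares 1 library with another and has no replicate check. Both libraries came from transduced cells, and the labels name no untransduced culture, no clone and no time after transduction. ELOVL5 itself is not measured by a microRNA table, so the knockdown could not be checked here.

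The miR-34 family is known as a group of growth-suppressing microRNAs that are induced by stress and DNA damage. Its members repress cell cycle and survival genes such as CDK4, CDK6, MET and BCL2. miR-192, miR-194 and miR-215 are likewise known to slow the cell cycle, and they are abundant in liver, gut and kidney epithelium. No target gene was measured in these libraries, which hold microRNA counts only.

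A microRNA selects its targets mainly through its seed, bases 2 to 8 from the 5′ end. The mature sequences are shown because they show which of these members share a seed and which could share reads. Shared reads could not be judged for hsa-miR-34c-5p, whose sequence was not matched, so its overlap with hsa-miR-34b-5p was not tested. They are RefSeq sequences (GRCh38.p14), matched by name for 8 of the 9 members, all but hsa-miR-34c-5p, and the seed is in capitals:
hsa-miR-34a-5p: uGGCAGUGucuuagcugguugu
hsa-miR-34a-3p: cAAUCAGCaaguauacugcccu
hsa-miR-34b-5p: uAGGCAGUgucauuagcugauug
hsa-miR-34b-3p: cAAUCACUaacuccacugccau
hsa-miR-34c-3p: aAUCACUAaccacacggccagg
hsa-miR-192-5p: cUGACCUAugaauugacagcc
hsa-miR-215-5p: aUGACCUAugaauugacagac
hsa-miR-194-5p: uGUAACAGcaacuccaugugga

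hsa-miR-192-5p and hsa-miR-215-5p shared their seed and differed at 2 of 21 bases, C1A and C20A, counted from the 5′ end of hsa-miR-192-5p. Reads of the less abundant hsa-miR-215-5p could therefore include some from hsa-miR-192-5p, depending on the mismatch setting, which is not given in the sources used here. hsa-miR-34b-3p and hsa-miR-34c-3p had a shared run of 10 bases, which began at base 2 of hsa-miR-34b-3p and at base 1 of hsa-miR-34c-3p, so their seeds were offset by 1 base. The same offset separated hsa-miR-34a-5p from hsa-miR-34b-5p. hsa-miR-34a-5p had the seed of hsa-miR-449a, which hsa-miR-34c-5p is also known to carry, and hsa-miR-34b-5p that of hsa-miR-449c-5p. miR-449 is a family known for its high level in multiciliated cells:
hsa-miR-449a: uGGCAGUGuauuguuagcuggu
hsa-miR-449c-5p: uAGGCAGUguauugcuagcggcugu

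The hairpins lie at 4 loci on 2 chromosomes (GRCh38, GENCODE 29). MIR34A is at chr1:9151668-9151777 on the minus strand, in an exon of the non-coding host gene MIR34AHG. MIR34B at chr11:111512938-111513021 and MIR34C at chr11:111513439-111513515 lie 417 bases apart on the plus strand, and that release places no host gene over them. MIR192 at chr11:64891137-64891246 and MIR194-2 at chr11:64891355-64891439 lie 108 bases apart on the minus strand, both in exons of the non-coding gene MIR194-2HG. MIR215 at chr1:220117853-220117962 and MIR194-1 at chr1:220118157-220118241 are neighbours on the minus strand, in an intron of IARS2, a mitochondrial isoleucyl-tRNA synthetase gene on the opposite strand.

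The shELOVL5 library held 6811811 microRNA counts and the shLuc library 7109272. Levels are given as counts per 1000000 counts (CPM) after TMM scaling, and ratios as shELOVL5 over shLuc with an exact 95% counting interval. Such intervals cover counting error only and do not include variation between cultures. The markers fixed for this line (hsa-miR-222-3p, hsa-miR-221-3p, hsa-miR-100-5p, hsa-miR-146a-5p and hsa-miR-21-5p) were high in both libraries, with 3032624 summed counts in shELOVL5 and 3168257 in shLuc. They did not move together. Ratios of hsa-miR-146a-5p (1.84) and hsa-miR-21-5p (1.21) were above 1, and those of hsa-miR-100-5p (0.868), hsa-miR-222-3p (0.894) and hsa-miR-221-3p (0.973) below. The 6 epithelial markers of the miR-200 family and hsa-miR-205-5p summed to 2671 and 2091 counts. Ratios were 1.71 for hsa-miR-200a-3p, 1.31 for hsa-miR-200b-3p and 1.59 for hsa-miR-429, but 0.981 for hsa-miR-200c-3p. hsa-miR-141-3p had 7 counts in shELOVL5 and 3 in shLuc, and hsa-miR-205-5p had 3 and 2. Outside the line's own markers, hsa-miR-122-5p of liver had 53 counts in shELOVL5 and 55 in shLuc, the stromal pair hsa-miR-143-3p and hsa-miR-145-5p had 14 and 14, and the 4 blood markers had 2197 and 2792, nearly all from hsa-miR-486-5p with 2146 and 2788. Of the other blood markers, hsa-miR-142-3p went the other way, with 45 counts in shELOVL5 and 2 in shLuc (ratio 22.9, 5.98 to 195), hsa-miR-451a had 6 and 2, and hsa-miR-223-3p was at 0 in both. Of the muscle pair, hsa-miR-1-3p had 14 counts in shELOVL5 and 80 in shLuc (ratio 0.178, 0.0932 to 0.317) and hsa-miR-133a-3p had 2 and 0. Of the neuronal pair, hsa-miR-9-5p gave 634 and 771 while hsa-miR-124-3p was at 0. The part of other cell types in the results below was not tested.

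Shares were taken of the counts with the highest precursor line kept. Together the 9 members made up 0.104% of them in shELOVL5 (0.101 to 0.106%, exact binomial) and 0.110% in shLuc (0.108 to 0.113%). At least 10 counts were found for 8 of the 9 members in shELOVL5 and for 7 in shLuc. Over all 2656 microRNAs this held for 567 in shELOVL5 and 562 in shLuc. The member that differed was hsa-miR-34b-5p, with 10 counts in shELOVL5 and 5 in shLuc. In both libraries the order of levels began with hsa-miR-192-5p, followed by hsa-miR-34c-5p, hsa-miR-194-5p, hsa-miR-34b-3p and hsa-miR-34a-5p. Neighbours among these 5 differed beyond counting error. hsa-miR-34a-5p, hsa-miR-34c-3p and hsa-miR-215-5p formed a lower group in which neighbours did not, except that hsa-miR-34a-5p stood above hsa-miR-34c-3p in shELOVL5. hsa-miR-34b-5p and hsa-miR-34a-3p came last. Adapter ligation favours some small RNAs over others, so the order describes read counts and not molecules in the cell.

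**Figure D1:**
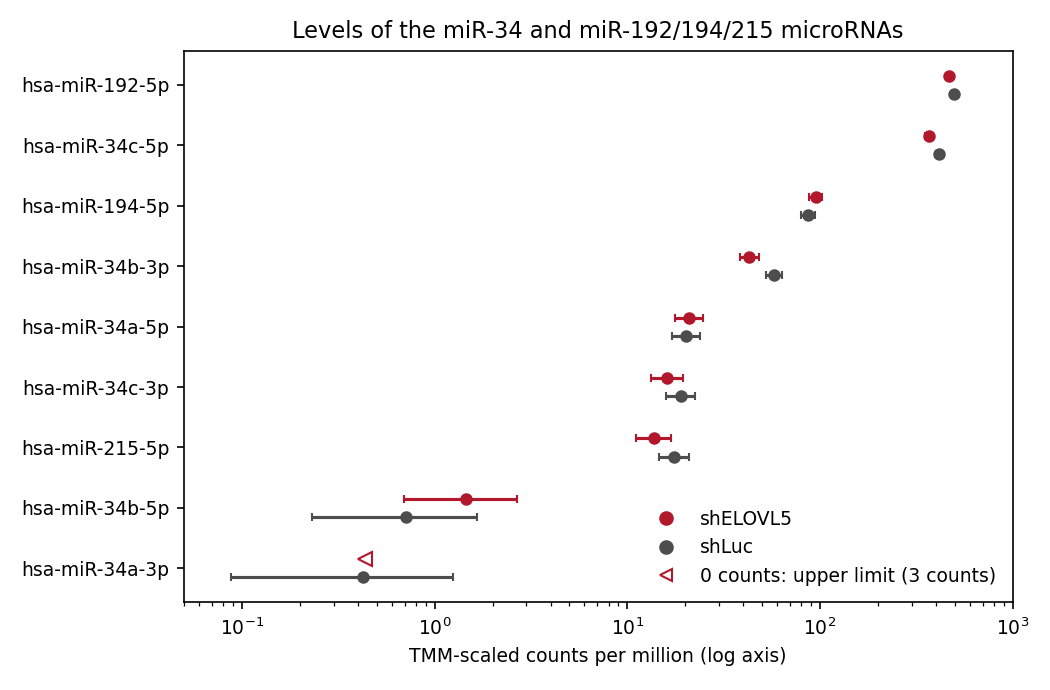
TMM-scaled CPM (log axis) of the 9 members in the shELOVL5 and shLuc libraries, 1 point per library. Bars are exact Poisson 95% intervals of the count. The open triangle marks 0.435 CPM, the value of the 3 counts set as limit for a count of 0, where the exact Poisson limit is 0.535 CPM. hsa-miR-192-5p is highest, at 467 CPM in the shELOVL5 library and 498 CPM in the shLuc library, and hsa-miR-34a-3p lies at about the limit of detection.

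The comparison of shELOVL5 with shLuc asked whether these microRNAs differed when ELOVL5 was targeted. No member with adequate counts differed by as much as 2-fold. A microRNA was called expressed at a mean of at least 50 CPM before TMM scaling and at least 100 counts over both libraries, which held for 191 microRNAs and for 4 members, namely hsa-miR-192-5p, hsa-miR-34c-5p, hsa-miR-194-5p and hsa-miR-34b-3p. Of the 4 members, 0 were at least 2-fold higher, against 1.57% of all expressed microRNAs, and 0 were at least 2-fold lower, against 0.0% of all. The ratio had a counting interval below 1 for 3 of the 4 and above 1 for 0 of the 4. Over all expressed microRNAs the interval lay below 1 in 41.9% and above 1 in 31.9%, so at this depth such intervals were common. The median log2 ratio of the 4 members was -0.14, beside -0.033 over all 191. Another 3 members had a mean of 10 to 50 CPM (hsa-miR-34a-5p, hsa-miR-34c-3p and hsa-miR-215-5p). Of these, 0 were 2-fold different, against 1.64% of the 122 microRNAs in that range that were at least 2-fold higher and 0.0% lower. All 3 had intervals that included 1, where 9.84% of the 122 had an interval below 1 and 27.0% one above.

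**Figure D2:**
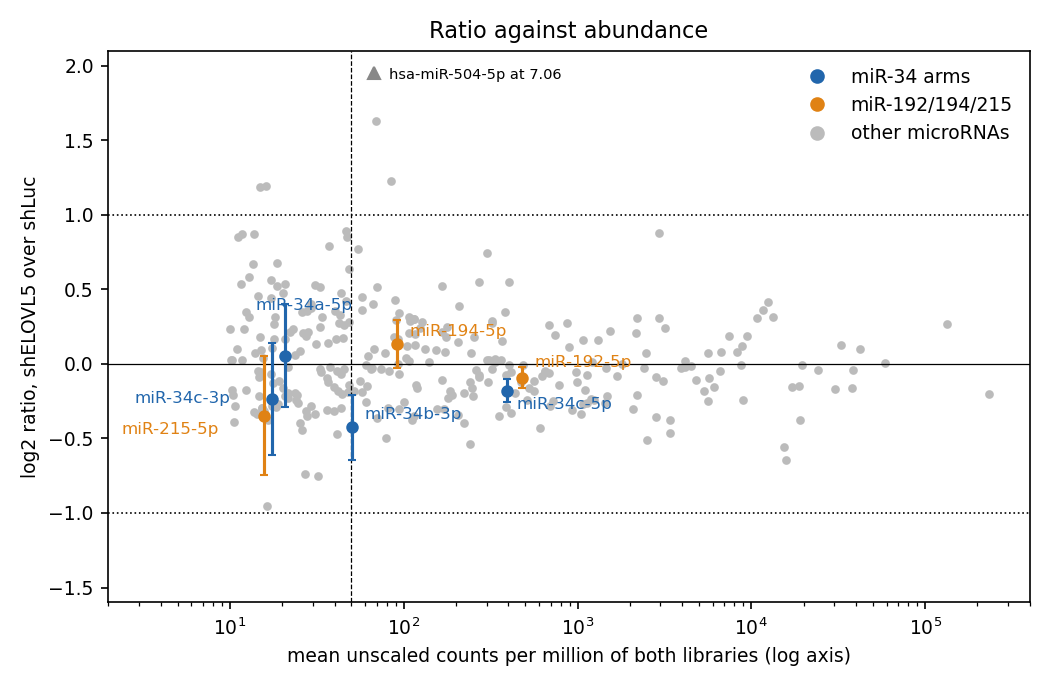
Log2 ratio of scaled CPM (shELOVL5 over shLuc) against the mean unscaled CPM of both libraries (log axis) for the 313 microRNAs with a mean of at least 10 CPM and 100 counts. Coloured points are the 7 members in that range with 95% counting intervals, dotted lines mark 2-fold, the dashed line marks 50 CPM, and the triangle is a value beyond the axis. The members lie between ratios of 0.745 and 1.10, inside the 2-fold lines.

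The pair of hairpins that encode miR-34b and miR-34c stood slightly lower in shELOVL5. hsa-miR-34c-5p, the main product of the MIR34C hairpin and the most abundant miR-34 microRNA, stood at 367 CPM in shELOVL5 (2529 counts) and 415 CPM in shLuc (2914 counts). Its ratio was 0.884 (0.837 to 0.932), and it ranked 101st by count in shELOVL5 and 95th in shLuc. hsa-miR-34b-3p stood at 43.1 CPM in shELOVL5 (297 counts) and 57.8 CPM in shLuc (406 counts). It was 1.34-fold lower in shELOVL5, a ratio of 0.745 (0.639 to 0.867), and of the 191 expressed microRNAs 7 had a lower ratio and 183 a higher one. With a mean of 50.4 CPM it lay just inside the limit for expression. hsa-miR-34c-3p, the less abundant arm, had 111 counts in shELOVL5 and 133 in shLuc, a ratio of 0.850 (0.654 to 1.10). These 3 arms lay below 1, with an interval that included 1 for hsa-miR-34c-3p, while hsa-miR-34b-5p lay above 1. The median ratio was 0.978 over all 191 expressed microRNAs and 1.02 over the 122 of 10 to 50 CPM.

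hsa-miR-34b-5p had 10 counts in shELOVL5 and 5 in shLuc. Its ratio of 2.04 (0.634 to 7.59) was the highest of the members, but 15 counts in all do not separate it from 1. Summed over the 4 arms, miR-34b and miR-34c had 2947 counts in shELOVL5 and 3458 in shLuc, a ratio of 0.868 (0.826 to 0.912). hsa-miR-34c-5p dominates this sum. The ratio of hsa-miR-34b-3p was lower than that of its neighbour hsa-miR-34c-5p by a factor of 0.843 (0.716 to 0.991), an interval that ends close to 1. Relative to hsa-miR-34c-3p the factor was 0.877 (0.647 to 1.19), which includes 1.

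miR-34a, encoded on another chromosome and generally the most studied member of the family, stood close to level. hsa-miR-34a-5p stood at 21.0 CPM in shELOVL5 (145 counts) and 20.2 CPM in shLuc (142 counts), giving a ratio of 1.04 (0.819 to 1.32). It ranked 257th in both libraries, and its ratio stood near the middle of the 122 microRNAs of 10 to 50 CPM, with 63 lower and 58 higher. Relative to hsa-miR-34c-5p its ratio was 1.18 times as high (0.921 to 1.5), so the counts do not separate the 2. The other arm, hsa-miR-34a-3p, had 0 counts in shELOVL5 and 3 counts in shLuc (0.427 CPM). With a limit of 3 counts, the 0 allows up to 0.435 CPM. No ratio is given for it. Over its 6 arms the miR-34 family had 3092 counts in shELOVL5 and 3603 in shLuc, a ratio of 0.874 (0.832 to 0.917).

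The family's makeup was similar in the 2 libraries. hsa-miR-34c-5p gave 81.8% of the miR-34 counts in shELOVL5 (exact binomial interval 80.4 to 83.1%) and 80.9% in shLuc (79.6 to 82.1%). hsa-miR-34b-3p gave 9.61% in shELOVL5 (8.59 to 10.7%) and 11.3% in shLuc (10.3 to 12.3%). hsa-miR-34a-5p gave 4.69% (3.97 to 5.49%) and 3.94% (3.33 to 4.63%) of them. In both libraries most read counts of the family therefore came from the MIR34B and MIR34C locus and not from MIR34A.

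**Figure D3:**
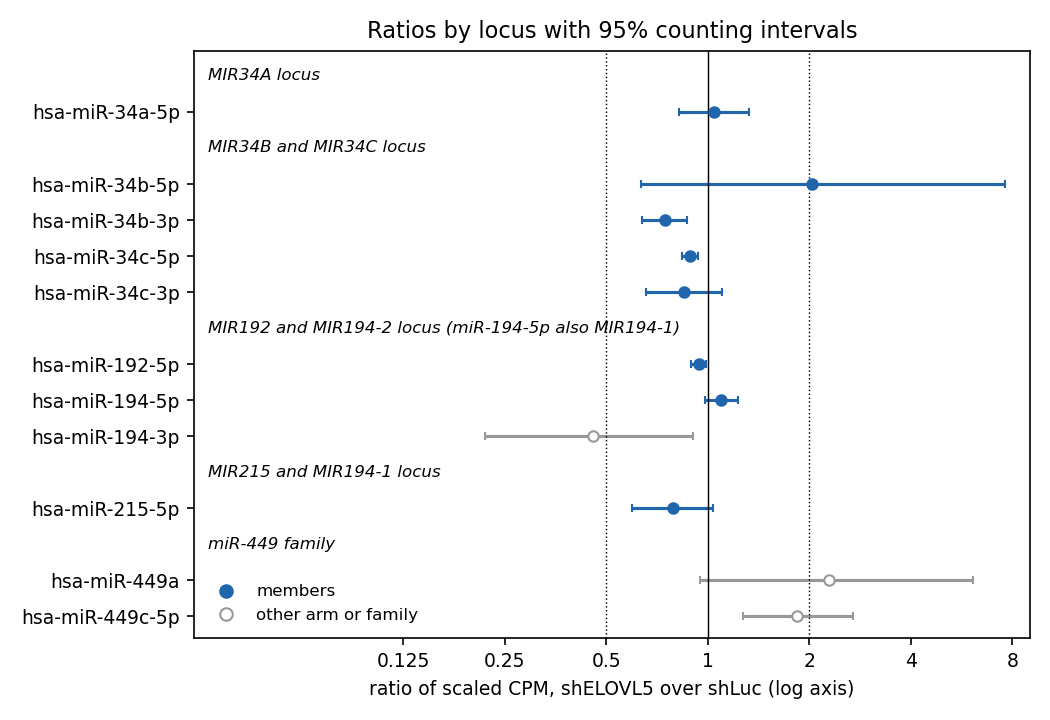
Ratio of scaled CPM (shELOVL5 over shLuc, log axis) with 95% counting intervals for the members and, in open symbols, for other arms and the miR-449 family, grouped by locus. hsa-miR-34b-3p (0.745) and hsa-miR-34c-5p (0.884) have intervals below 1, while hsa-miR-449c-5p (1.84) has one above. microRNAs with no more than 3 counts in either library have no ratio and are not drawn.

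In the miR-449 family, whose members share miR-34 seeds, hsa-miR-449c-5p stood on the other side of 1 at a much lower level. hsa-miR-449c-5p stood at 12.0 CPM in shELOVL5 (83 counts) and 6.55 CPM in shLuc (46 counts), giving a ratio of 1.84 (1.27 to 2.69). hsa-miR-449a had 18 counts in shELOVL5 and 8 in shLuc, a ratio of 2.29 (0.948 to 6.09), and hsa-miR-449b-5p had 2 and 2. All 3 were below the limit for expression, and no share with an interval above 1 was computed for microRNAs below 10 CPM. At 10 to 50 CPM, 27.0% of microRNAs had such an interval. The ratio of hsa-miR-449c-5p was 2.08 times that of hsa-miR-34c-5p (1.43 to 3.06). Summed, the 3 miR-449 microRNAs had 103 counts in shELOVL5 and 56 in shLuc, which is small beside the miR-34 totals. hsa-miR-2682-5p, which also has the seed of hsa-miR-34b-5p and hsa-miR-449c-5p, had 29 counts in shELOVL5 and 34 in shLuc.

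Each hairpin can load either arm, and the balance of the arms set miR-34b apart from the other hairpins of the set in both libraries. Of the MIR34B counts, hsa-miR-34b-3p gave 96.7% in shELOVL5 (exact binomial interval 94.1 to 98.4%) and 98.8% in shLuc (97.2 to 99.6%). The 3p arm held only 4.20% of the MIR34C counts in shELOVL5 (3.47 to 5.04%) and 4.36% in shLuc (3.67 to 5.15%). The hairpin is shown with both arms in capitals, the 5p arm first:
MIR34B: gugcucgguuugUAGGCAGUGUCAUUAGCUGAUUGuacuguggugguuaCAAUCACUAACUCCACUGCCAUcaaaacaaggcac

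A dominant 3p arm was not unusual. Among 173 hairpins with at least 100 counts and at least 10 on the minor arm over both libraries, the 3p arm held the majority in 42.2% and more than 95% of the counts in 19.7%. The ratio of 3p to 5p counts of MIR34B was 29.7 in shELOVL5 and 81.2 in shLuc, but these rest on 10 and 5 counts of the 5p arm. The change between libraries, a factor of 0.366 (0.0972 to 1.19), was therefore not detectable at this depth. For MIR34C the corresponding factor was 0.962 (0.736 to 1.25), so the counts do not separate the shELOVL5 over shLuc ratios of its arms.

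**Figure D4:**
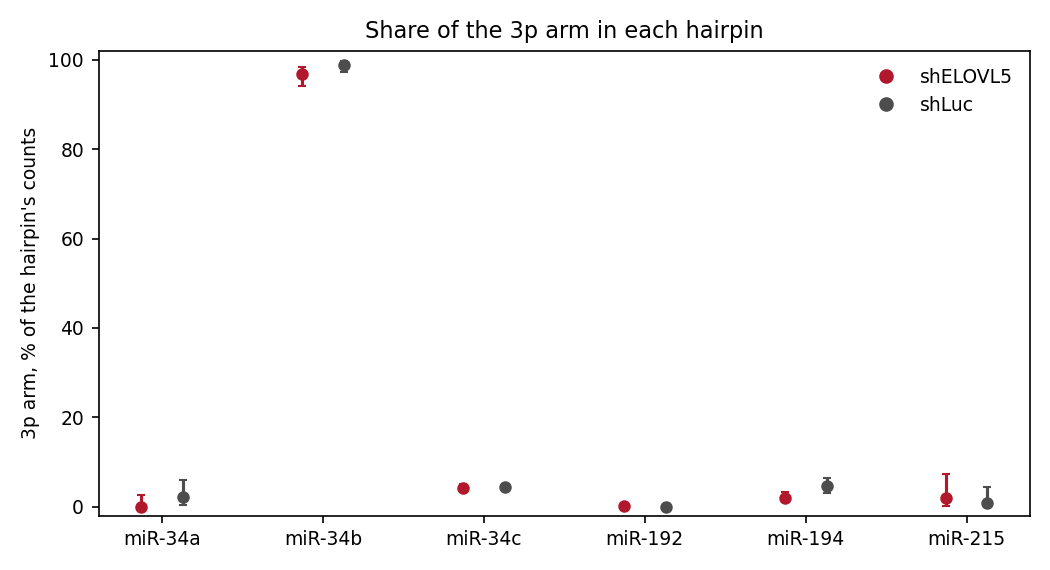
Share of the 3p arm in each hairpin's counts (%) in the shELOVL5 and shLuc libraries, with exact binomial 95% intervals; miR-194 counts are those of the MIR194-2 hairpin. The 3p arm of miR-34b holds 96.7% in shELOVL5 and 98.8% in shLuc, and every other hairpin is below 5% in both.

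Within the group of miR-192, miR-194 and miR-215, the 3 microRNAs lay on both sides of a ratio of 1. hsa-miR-192-5p, the most abundant of all 9 members, stood at 467 CPM in shELOVL5 (3219 counts) and 498 CPM in shLuc (3495 counts). Its ratio was 0.938 (0.894 to 0.984), and scaling by library totals gave 0.961 (0.916 to 1.01), an interval that included 1. hsa-miR-194-5p stood at 95.4 CPM in shELOVL5 (658 counts) and 87.0 CPM in shLuc (611 counts). Its ratio was 1.10 (0.981 to 1.23), or 1.12 (1.01 to 1.26) with library totals. For both, the side of the interval thus depended on the scaling. hsa-miR-215-5p, with the seed of hsa-miR-192-5p, stood at 13.8 CPM in shELOVL5 (95 counts) and 17.5 CPM in shLuc (123 counts), giving a ratio of 0.786 (0.595 to 1.04). Of the 122 microRNAs of 10 to 50 CPM, 9 had a lower ratio and 112 a higher one.

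Comparisons between members do not depend on the scaling. hsa-miR-194-5p had a ratio 1.17 times that of hsa-miR-192-5p (1.04 to 1.32) and 1.39 times that of hsa-miR-215-5p (1.03 to 1.88), its neighbours at the 2 loci. hsa-miR-215-5p relative to hsa-miR-192-5p gave 0.839 (0.632 to 1.11), which includes 1. These comparisons between microRNAs carry no adjustment for their number. As a group the 3 microRNAs had 3972 counts in shELOVL5 and 4229 in shLuc, a ratio of 0.956 (0.915 to 0.999), or 0.980 (0.938 to 1.02) with library totals. hsa-miR-192-5p gave 81.0% of them in shELOVL5 (79.8 to 82.3%) and 82.6% in shLuc (81.5 to 83.8%). hsa-miR-192-5p and hsa-miR-215-5p, which share a seed, summed to 3314 counts in shELOVL5 and 3618 in shLuc.

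hsa-miR-194-5p was the only member listed under more than 1 precursor. Its line for MIR194-2 had 658 counts in shELOVL5 and 611 in shLuc, and its line for MIR194-1 had 448 and 417. The mature sequence is identical in both hairpins, while the bases next to it on either side differ. Both hairpins are shown, with the annotated mature arms in capitals:
MIR194-1: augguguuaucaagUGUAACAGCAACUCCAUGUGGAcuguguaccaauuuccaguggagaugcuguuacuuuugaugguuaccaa
MIR194-2: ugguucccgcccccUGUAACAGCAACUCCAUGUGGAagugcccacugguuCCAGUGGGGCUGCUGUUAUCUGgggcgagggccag

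The MIR194-1 count was 68.1% of the MIR194-2 count in shELOVL5 and 68.2% in shLuc. The ratio of shELOVL5 over shLuc was 1.09 for MIR194-1 (0.955 to 1.25) and 1.10 for MIR194-2, so the choice of line did not move it. How reads that match both hairpins were counted is not given in the sources used here, and the lines cannot be read as the output of each locus.

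The rarer arms of this group were near the limit of detection. hsa-miR-194-3p, which comes from MIR194-2, stood at 1.88 CPM in shELOVL5 (13 counts) and 4.13 CPM in shLuc (29 counts), giving a ratio of 0.456 (0.218 to 0.906). The 3p arm held 1.94% of the counts in the MIR194-2 lines of both arms in shELOVL5 (1.04 to 3.29%) and 4.53% in shLuc (3.06 to 6.44%). Reads of the 5p line may also come from MIR194-1, so these shares cannot be credited to the MIR194-2 hairpin alone. With the same limit, the ratio of the 3p line to the 5p line changed by a factor of 0.416 (0.197 to 0.836). Of the 173 hairpins, 4.05% had a 3p to 5p ratio at least 2-fold lower in shELOVL5 and 4.62% one at least 2-fold higher. The interval excluded 1 with a lower ratio in 16.2% and with a higher ratio in 15.6%. hsa-miR-192-3p had 2 counts in shELOVL5 and 0 in shLuc, and hsa-miR-215-3p had 2 and 1, too few for a ratio.

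The expressed microRNAs nearest to the leading members in level were found by the distance of log2 scaled CPM over the 2 libraries, and their ratios could differ. For hsa-miR-34c-5p these were hsa-miR-335-3p (ratio 0.949, distance 0.074), hsa-miR-574-5p (0.819, distance 0.078) and hsa-miR-532-5p (0.995, distance 0.14). For hsa-miR-192-5p they were hsa-miR-331-3p (0.920, distance 0.047), hsa-miR-15b-5p (0.993, distance 0.063) and hsa-miR-3615 (0.845, distance 0.17). With 2 libraries such a likeness rests on 2 values for each microRNA.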

How the data were processed

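RNA of MDA-MB-231 cells was isolated with the miRNeasy Micro kit, turned into small RNA libraries with a NEBNext kit and sequenced single-end on an Illumina NextSeq, per the labels' protocols. The extraction text speaks of tumor material, while the sample labels name the cell line. The authors deposited raw counts of reads for each precursor and mature microRNA, unscaled. The submitters' processing notes list FastQC 0.11.9, cutadapt 2.10 and Bowtie 1.1.1; counting program and annotation release: not given in the sources used here. No molecular identifiers are described, so PCR copies may be counted more than once.

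Of 2886 lines, the highest count per library was kept for each of 2656 mature microRNAs (166 had several precursors). TMM factors over the whole table came from edgeR 4.0.16 in R 4.3.3 (1.01 for shELOVL5, 0.988 for shLuc). Ratio intervals are exact Clopper-Pearson intervals of the share of both counts, and intervals for a factor between 2 ratios are exact conditional odds ratio intervals (scipy 1.17.1). A count of 0 allows up to 3 counts. With 1 library per condition no test was run and no p-value is given. The interval script was tested on simulated counts. Alternatives were library totals, DESeq2 1.42.0 size factors (1 for both libraries), other filters and fold rules, 5 CPM added, the sum of precursor lines, and thinning. The members and pairs were chosen with earlier results of these data known. The named microRNAs are the 9 members, their other arms, the miR-449 family and hsa-miR-2682-5p, which share miR-34 seeds. The 3 nearest to each leading member and the microRNAs fixed as cell type markers are also named. Further microRNA lists were examined and are not reported here.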

Additional observations from a re-analysis of the deposited data

How the results depend on the processing

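No paired analysis was possible because there is a single shELOVL5 library and a single shLuc library, and leaving either out would end the comparison. The 8 members with a ratio and the summed ratios of both groups kept their side of 1 under library totals, under DESeq2 size factors, when 5 CPM was added and when precursor lines were summed, and all 40 values lay inside the main counting interval. The DESeq2 size factors were 1 for both libraries, so that setting compared unscaled counts. Library totals shifted every log2 ratio by 0.036 and DESeq2 size factors by -0.026. The log2 ratio nearest to 0 among the members was 0.056, for hsa-miR-34a-5p, so neither scaling could move a member across 1. Adding 5 CPM to both values cannot do so either, so the kept sides add no support for a difference. For hsa-miR-34b-5p the ratio was 1.13 with 5 CPM added, against 2.04. The members at least 2-fold higher or lower were 0 and 0 under every setting but 1. When 1 count per library was the only filter, 1 of 8 was higher, hsa-miR-34b-5p, beside 120 of all 1024 microRNAs. With the sum over precursor lines 3 members were expressed, without hsa-miR-34b-3p, and with a mean of at least 1000 CPM 0 were. Over all microRNAs, 3 of 191 were at least 2-fold higher. These became 5 of 313 with a mean of at least 10 CPM and 0 of 68 with at least 1000 CPM. They became 120 of 1024 with only the 1-count filter and 6 of 191 by a 1.5-fold rule. The 0 that were lower became 77 of 1024 with only the 1-count filter and 1 of 191 by a 1.5-fold rule. Summing precursor lines could not change the ratios of 3p to 5p counts of MIR34B and MIR34C, whose arms each have 1 line. The ratio of miR-194, whose 5p arm has several lines, was not recomputed. Thinning shLuc to the total of shELOVL5 left 9 members with at least 1 count and 7 with at least 10. Depth limits hsa-miR-34a-3p and hsa-miR-34b-5p, and without replicate libraries no difference can be set against variation between cultures.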
